A study of Mus musculus with 8 samples.

Results

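The comparison described here is the withdrawal of leukemia inhibitory factor (LIF) from mouse embryonic stem cells labelled as Rex-1 knockouts. Its members are the 4 arrays titled Rex KO or Rex-1 KO, of 8 arrays in the series: 2 from cells without LIF and 2 from cells with LIF. The other 4 arrays are from J1 cells, the wild-type embryonic stem cell line of the same strain label, again 2 without and 2 with LIF. All cells were grown as a monolayer on gelatin in medium with fetal calf serum, and total RNA was hybridised to single-colour Affymetrix arrays. LIF was absent for 12 hours before RNA extraction, per a protocol text that all 8 arrays share, and the arrays with LIF are labelled as cultured in its presence. The design text speaks of 2 biological replicates per cell type and condition. Each group has a first array and an array whose title ends in the letter r, a letter the labels do not explain, so p-values measure only the spread between these arrays, which may be technical. The labels do not say how many knockout clones were used or which part of the gene was deleted. For the knockout arrays without LIF, the culture description still lists LIF as added, against both the title and the treatment label; the grouping here follows the latter.

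Values are the deposited linear signal intensities, taken to log2, so a difference of 1 is a 2-fold difference. Of 45037 probe sets that are not controls, the 14892 with a mean log2 signal of at least 8 over the 8 arrays were used. They represent 8365 genes, each by its probe set of highest mean signal. A level here compares 1 probe set between arrays, never 1 gene with another. Over all probe sets, the median signal of an array lay between 114.2 and 143.5, the highest in the knockout r array with LIF. Over the 14892 used, that array had the lowest median log2 signal, 9.686, against 9.72 to 9.783 in the others. Precision is limited by having 2 arrays a group: the median gene differed by 0.25 on the log2 scale between the 2 knockout arrays with LIF and by 0.23 between the 2 without. Fewer cells of a type and less RNA per cell cannot be told apart in bulk samples such as these.

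Zfp42, which encodes the zinc finger protein Rex-1, is the gene that the knockout label names. It had a log2 signal of 14.14 and 14.08 in the 2 knockout arrays with LIF and of 14.06 and 14.03 in those without. The signal was thus high in all 4 arrays labelled knockout, and it differed by -0.06 without LIF (SE 0.17). In the J1 arrays Zfp42 was at 14.174 and 14.505 with LIF and 14.153 and 14.328 without, so the knockout label came with little difference in signal. Whether its probe set lies outside the deleted part was not tested, so it does not check the deletion, and the arrays are called knockout below by their label. The cell type label was checked with 10 markers of embryonic stem cells, among them Pou5f1, Sox2 and Nanog, and 10 of 10 were above the signal floor. Of the markers of other cell types, 0 of 10 mesoderm genes, 1 of 10 trophoblast genes and 3 of 15 extraembryonic endoderm genes were above it. More were above it in other lists: 6 of 13 neural ectoderm, 6 of 14 fibroblast or feeder, 6 of 13 germ cell and 2 of 6 2-cell-like genes. Among the defining genes below it were Gata4, Gata6 and Sox17 of endoderm, Cdx2 and Eomes of trophoblast, and Mixl1 and Mesp1 of mesoderm.

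LIF is a cytokine that binds its receptor, encoded by Lifr, together with the shared signalling chain gp130, encoded by Il6st. The receptor complex activates Janus kinases such as Jak1, which phosphorylate the transcription factor Stat3. In mouse embryonic stem cells grown in serum, Stat3 drives genes that hold back differentiation, and it also induces Socs3, an inhibitor that binds gp130 and shuts the signal down. When LIF is removed the cells leave the naive state, which resembles the epiblast before implantation, and move toward the primed state of the later epiblast. Rex-1 is itself a widely used marker of the naive state.

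Without LIF, Socs3 stood 8.07-fold lower in the knockout arrays. Bcl3, Gjb5, Spink1, Junb, Scyl2, Stat3, Icam1, Urah and Abca1 were between 2.05-fold and 3.04-fold lower. On the other side Lpar4, Efnb2, Otx2 and Garem1 were 2.06-fold to 2.4-fold higher, the largest mean differences among the higher genes whose groups did not overlap. None of these differences passed the test across all probe sets. limma called 0 of 14892 probe sets (0.0%) at a Benjamini-Hochberg adjusted p under 0.05, and the smallest adjusted p was 1.0. At an unadjusted p under 0.05 there were 348 probe sets (2.34%), of which 114 were lower and 234 higher without LIF, where 5% of the probe sets would be 745. With the letter r as a term of the fit, limma again called 0, and 1022 had an unadjusted p under 0.05, above that number. The differences below are therefore given as measured in both pairs of arrays, first against first and r against r.

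A gene was counted as lower or higher in both pairs when it differed by at least 1.5-fold in the same direction in the first arrays and in the r arrays. By this rule 34 of 8365 genes (0.406%) were lower without LIF and 33 (0.395%) were higher. In the first arrays alone 113 genes were 1.5-fold lower and 186 higher, and in the r arrays 201 and 335. At 2-fold in both pairs 6 genes were lower and 2 higher. Another 2 genes were 1.5-fold lower in the first arrays and higher in the r arrays, and 6 the reverse. The groups did not overlap for 31 of the 34 lower genes and 26 of the 33 higher genes, which a 1.5-fold difference in both pairs makes likely by construction; of all genes 10.9% lay below and 14.0% above without overlap. With any 1 of the 4 knockout arrays left out, the remaining array of that group entering both pairs, 47 to 84 genes were lower and 40 to 245 higher, the upper end of each without the first array with LIF.

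**Figure D1:**
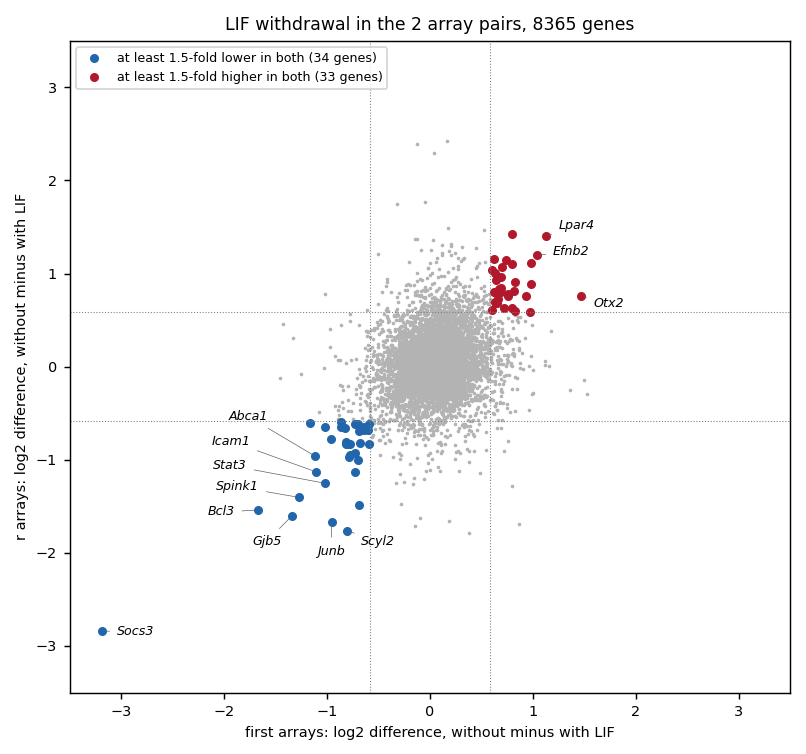
Log2 difference without minus with LIF in the r arrays (vertical axis) against that in the first arrays (horizontal axis) for 8365 genes, with the 1.5-fold limits as dotted lines, the 34 genes lower in both pairs in blue and the 33 higher in both in red. Socs3 lies alone at about 3 log2 units below 0 in both pairs, and the other coloured genes lie between it and the limits or beyond the limits on the higher side.

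Socs3 had the largest difference of all 8365 genes. Its log2 signal was 12.78 in the first array and 12.68 in the r array with LIF, against 9.60 and 9.84 without LIF. Both arrays without LIF were thus far below both with it, by 3.18 in the first pair and 2.84 in the r pair (mean -3.01, SE 0.56). The SE comes from the fit to all 8 arrays, and from the 4 knockout arrays alone it was 0.19. All 3 probe sets of Socs3 above the floor gave a like difference, of -3.01, -2.94 and -2.72.

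The promoters of Socs3 and Icam1 are shown because both encode known targets of Stat3, and each holds in the 250 bases before its start the letters TTCNNNGAA, the inverted repeat that STAT factors bind. The pattern is its own reverse complement, so the search covers both strands. RefSeq (GRCm38.p6) places the Socs3 window at chr11:117969367-117969616 on the minus strand and the Icam1 window at chr9:21015690-21015939 on the plus strand. The repeat is in capitals, 5′ to 3′ toward the gene, and begins 154 bases before the Socs3 start and 42 before that of Icam1.
Socs3: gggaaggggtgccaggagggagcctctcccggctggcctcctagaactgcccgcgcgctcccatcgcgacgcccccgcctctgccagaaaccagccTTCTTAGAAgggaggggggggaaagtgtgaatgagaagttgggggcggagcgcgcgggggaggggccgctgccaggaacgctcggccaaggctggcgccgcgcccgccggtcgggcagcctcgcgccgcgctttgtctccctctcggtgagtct
Icam1: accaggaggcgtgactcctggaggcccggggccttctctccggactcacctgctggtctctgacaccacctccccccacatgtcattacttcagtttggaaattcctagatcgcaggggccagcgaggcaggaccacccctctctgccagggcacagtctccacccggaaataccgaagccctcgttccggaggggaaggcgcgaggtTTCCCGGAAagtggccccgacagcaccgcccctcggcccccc
Of the 34 lower genes 28 had a window in RefSeq, and 4 of these (14.3%) held TTCNNNGAA: Socs3, Icam1, Tgm1 and Urah. It was in 3 of 29 higher genes (10.3%) and in 8.13% of all 27025 genes with a window. Among these higher genes was Otx2, with TTCTTGGAA beginning 113 bases before its start. The stricter TTCCNGGAA, whose matches are all contained among those of TTCNNNGAA, was in 1 lower gene (3.57%), Icam1, in 0 higher genes and in 1.09% of all genes. A match of letters is a description and shows no binding.

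The signalling chain from ligand to transcription factor was measured next. Lif itself lay below the floor in the mean, with a log2 signal of 7.38 and 7.42 with LIF and 7.77 and 6.81 without, so its arrays overlapped. Lifr, the ligand-binding receptor chain, had a log2 signal of 10.95 and 10.96 with LIF and 10.82 and 10.96 without, a difference of -0.07 (SE 0.17). Il6st, which encodes gp130, differed by -0.07 (SE 0.25) and Jak1, the kinase bound to it, by 0.12 (SE 0.16), with overlapping arrays in each case. The levels of the receptor chains and of Jak1 were thus within the spread of the arrays.

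Stat3, the transcription factor at the end of this chain, differed more. Its log2 signal was 10.94 and 11.21 with LIF and 9.92 and 9.95 without, so both arrays without LIF were below both with it (mean difference -1.14, SE 0.31). A second Stat3 probe set gave -1.06. Of the 16 genes above the floor among 23 listed for the LIF receptor and JAK-STAT pathway, Stat3 and Stat4 were lower in both pairs and 0 were higher, with a median difference of -0.04 against 0.02 over all genes. Stat4, a STAT factor best known from interleukin-12 signalling in lymphocytes, had a log2 signal of 8.25 and 8.32 with LIF and 7.66 and 7.70 without. Jak3, a kinase of cytokine receptors of the immune system, was 0.29 and 0.42 lower in the first and r pair, and Pias3, which encodes an inhibitor of activated Stat3, was 0.19 and 0.37 higher.

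Among the 7 measured genes of SOCS feedback, inhibitors that cytokine signals induce against themselves, only Socs3 was 1.5-fold lower in both pairs. Cish, another such inhibitor, was 0.41 and 0.37 lower in the first and r pair without overlap between the groups. Socs2 went in opposite directions, with differences of 0.71 in the first arrays and -0.15 in the r arrays. The median of the list was -0.01.

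Of 35 listed LIF and STAT3 targets 32 were above the floor. Without LIF 8 of the 32 were lower in both pairs, namely Socs3, Bcl3, Junb, Stat3, Icam1, Pim3, Ier3 and Mras, and 0 were higher. The groups did not overlap for 14 genes below and 2 above, where 10.9% of all genes lay below and 14.0% above without overlap, and the median difference was -0.26 against 0.02 over all genes. The list was drawn up with earlier results of these arrays known, so it is not independent evidence of its direction.

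Bcl3, which encodes a nuclear partner of the NF-kappaB subunits, had a log2 signal of 10.02 and 9.88 with LIF and 8.35 and 8.34 without. The arrays of each group lay close together and the groups lay apart (mean difference -1.60, SE 0.38). Icam1, which encodes an adhesion molecule of the cell surface, went from 10.35 and 9.84 with LIF to 9.24 and 8.71 without (-1.12, SE 0.41). Both genes are also on the list of NF-kappaB and Bcl3, where the other 6 of 8 measured genes were within 1.5-fold in at least 1 pair. Rela, an NF-kappaB subunit itself, differed by 0.25 and 0.11, upward in both pairs.

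Junb, which encodes a subunit of the AP-1 transcription factor, had a log2 signal of 9.06 and 8.54 with LIF and 8.10 and 6.87 without. The r array without LIF was the lowest of the 4, and the difference was -1.31 (SE 0.56). It was -0.69 without that array and -1.93 without the first array lacking LIF. Ier3, an immediate early gene that counters cell death, was 8.40 and 8.29 with LIF and 7.63 and 7.34 without. The rest of the 15 measured AP-1 and immediate early genes did not share a direction: Ier2 was 0.36 and 0.57 lower, Jund 0.40 and 0.25 higher, and Egr1 differed by -0.04 and -1.12. Ccn2, a matricellular protein gene, was 1.5-fold higher in both pairs with overlapping groups (11.17 and 10.22 with LIF, 11.78 and 10.82 without).

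Pim3, a serine/threonine kinase gene, had a log2 signal of 11.95 and 12.30 with LIF and 11.16 and 11.33 without, a difference of -0.88 (SE 0.19). A second probe set gave -0.69, and another one of low signal gave 0.27. Its relatives differed by less, by 0.23 and 0.43 for Pim1 and by 0.56 and 0.15 for Pim2 in the first and r pair. Sgk1, a kinase of the AKT-like family, was at 13.03 and 13.17 with LIF and 12.37 and 12.61 without, 1.5-fold lower in the first pair only. Mras, a small GTPase gene of the RAS family that is also listed for the naive state, was at 9.38 and 9.44 with LIF and 8.36 and 8.80 without; a dimmer probe set gave -0.36.

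**Figure D2:**
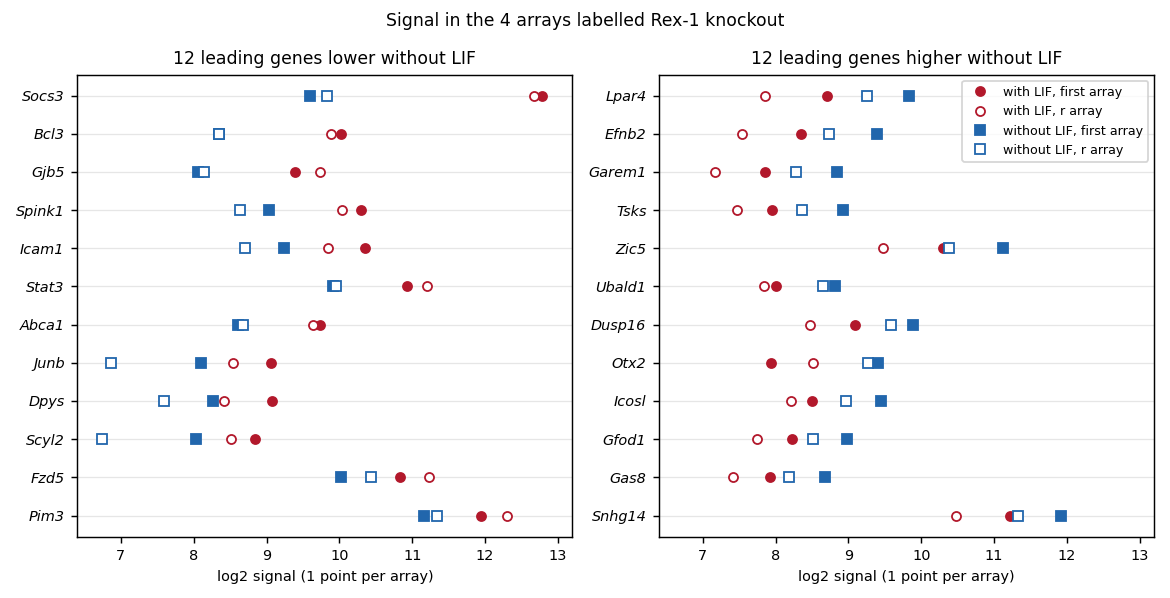
Log2 signal (horizontal axis) of the 12 lower genes (left) and 12 higher genes (right) with the largest smaller-of-2 differences and no overlap, 1 point per knockout array, red circles with LIF and blue squares without, filled for first arrays and open for r arrays. For Socs3 the groups are about 3 log2 units apart, and among the higher genes the r array with LIF is the lowest point of every gene but Otx2. Over all genes, that array is the lowest of the 4 in 34.7%.

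Outside these lists, Gjb5, a gap junction connexin gene, had a log2 signal of 9.40 and 9.74 with LIF and 8.05 and 8.14 without (-1.47, SE 0.22). Spink1, which encodes a secreted trypsin inhibitor, was at 10.30 and 10.04 with LIF and 9.03 and 8.63 without (-1.34, SE 0.20). Abca1, the cholesterol exporter, was at 9.73 and 9.64 with LIF and 8.61 and 8.68 without (-1.04, SE 0.18). In each of these genes the gap between the groups was wider than the distance between the arrays of a group.

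Fzd5, which encodes a WNT receptor, was at 10.83 and 11.24 with LIF and 10.02 and 10.43 without (-0.81, SE 0.23), and its second probe set gave -1.02. It was the only 1 of 10 measured WNT genes lower in both pairs; Fzd7, Fzd2 and Tcf7l1 lay above in both arrays without LIF, by 0.55, 0.56 and 0.57 in the mean. Dpys, a pyrimidine-degrading enzyme gene, differed by -0.81 in the first and -0.83 in the r pair, its nearest arrays being 8.42 with and 8.26 without LIF. Scyl2, a gene of clathrin-coated vesicle traffic, was at 8.84 and 8.51 with LIF and 8.04 and 6.75 without, with the r array again the lowest. Its difference of -1.28 was -0.64 without that array and -1.93 without the first array lacking LIF, and that of Dpys was -0.49 and -1.16 without the same arrays.

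Lama1, a basement membrane laminin chain, was at 9.41 and 9.20 with LIF and 8.77 and 8.56 without, the only 1 of 17 measured matrix and integrin genes lower in both pairs. Irf9, which carries interferon signals to DNA together with STAT factors, was at 8.68 and 8.48 with LIF and 7.99 and 7.86 without, the only 1 of 10 interferon response genes. The other non-overlapping lower genes were Htra1, Trh, Pcolce, Prr13, Tgm1, Urah, Slc30a2, Fblim1, Ak7, Cavin1, Cltb, Lor, Khdc3 and Dapp1, with mean differences from -1.09 for Urah to -0.64 for Lor. Slc52a3, Sema6c and Mapkbp1 were lower in both pairs with overlapping groups. Sema6c, for example, was at 9.52 and 11.56 with LIF and 8.57 and 10.78 without, so its r arrays were higher than its first arrays in both conditions.

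Genes of the primed epiblast stood on the higher side. Of 23 listed, 14 were above the floor, and 5 of the 14 (Otx2, Zic5, Dnmt3a, Sox4 and Sox11) were higher in both pairs and 0 were lower. Their median difference was 0.36 against 0.02 over all genes, and the groups did not overlap for 6 above and 0 below (14.0% and 10.9% of all genes). The count was 1 of 14 without the r array with LIF and 1 without the first array lacking LIF. The remaining array of that group then entered both pairs, so a first array was set against an r array. Dependence on 1 array and a shift between first and r arrays cannot be told apart in these counts. With the mean of all probe sets of a gene in place of the brightest it was 3. This list, too, was drawn up with earlier results of these arrays known.

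Otx2, a homeobox gene of the primed epiblast, had a log2 signal of 7.94 and 8.51 with LIF and 9.40 and 9.27 without. Both arrays without LIF were above both with it (mean difference 1.11, SE 0.46). Zic5, a zinc finger gene of the same state, was at 10.29 and 9.48 with LIF and 11.12 and 10.38 without, so the first array with LIF lay just below the r array without it (0.87, SE 0.36). Its difference was 0.46 without the r array with LIF and 1.27 without the first array with LIF. A second Zic5 probe set gave 0.67 in the mean, 0.34 in the first pair and 0.99 in the r pair. Its relative Zic2 lay below the floor, at 6.93 and 6.96 with LIF and 7.80 and 8.04 without.

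Dnmt3a, which encodes a de novo DNA methyltransferase, was at 10.16 and 9.88 with LIF and 10.83 and 10.71 without (0.75, SE 0.17), and its other probe sets gave 0.49, 0.58 and 0.57. It was the only 1 of 11 measured DNA methylation genes higher in both pairs; Dnmt3b, its sister enzyme and a further primed marker, differed by 0.12 and 0.07. Sox4 was at 10.32 and 9.84 with LIF and 10.98 and 10.57 without. Sox11, like Sox4 a SOX factor of neural development, was at 8.89 and 7.94 with LIF and 9.53 and 8.62 without, with overlapping groups. Sox11 is also the 1 of 6 neural ectoderm markers above the floor that was higher in both pairs, while Gap43, a growth cone gene, was at 8.64 and 7.92 with LIF and 7.56 and 7.43 without. Nodal, a signal of the epiblast, was 0.38 higher in each pair by its brightest probe set and differed by 0.12 and -0.04 by another, and Pou3f1 was 0.53 and 0.21 higher. Each of the 14 measured primed genes had a mean difference above 0.

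Lpar4, which encodes a receptor for lysophosphatidic acid, led the higher genes with 8.71 and 7.85 with LIF and 9.83 and 9.25 without (1.26, SE 0.38). Efnb2, the ephrin-B2 ligand gene, was at 8.35 and 7.54 with LIF and 9.39 and 8.73 without (1.12, SE 0.35), and a second probe set gave 1.29. Garem1, an adaptor of growth factor receptor signalling, was at 7.86 and 7.17 with LIF and 8.84 and 8.28 without. In these 3 genes the r array with LIF was the lowest of the 4. Leaving that array out gave 0.83 for Lpar4 and 0.71 for Efnb2, and leaving out the first array with LIF gave 1.69 and 1.52.

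Dusp16, a phosphatase gene acting on JNK and p38 kinases, was at 9.10 and 8.47 with LIF and 9.89 and 9.58 without (0.95, SE 0.25). Icosl, a ligand of the T cell costimulator ICOS, was at 8.51 and 8.21 with LIF and 9.44 and 8.97 without. Tsks, a testis kinase substrate gene, was at 7.94 and 7.47 with LIF and 8.92 and 8.36 without. Snhg14, a long noncoding RNA that hosts small nucleolar RNAs, was at 11.22 and 10.48 with LIF and 11.91 and 11.33 without. The other leading genes, Ubald1, Gfod1 and Gas8, had mean differences of 0.82, 0.76 and 0.77. With 1 knockout array left out, Gas8 ran from 0.51 to 1.02, Snhg14 from 0.40 to 1.14 and Sox4 from 0.46 to 0.94. A further 12 non-overlapping higher genes were Wipf2, Ankrd6, Esyt2, Rc3h2, Mcf2, Robo1, Armcx4, Kdm7a, Zfhx3, Pan3, Gas2l3 and Foxn3, with mean differences from 0.66 for Rc3h2 to 0.89 for Zfhx3. Cebpd, Sema3e, Mbd6, Rhob and Foxp1 were higher in both pairs with overlapping groups, as were Sox11 and Ccn2. Cebpd, for example, was at 8.34 and 6.37 with LIF and 9.14 and 7.80 without.

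The higher genes shared a pattern between the arrays of a group. The first array was above the r array in 29 of the 33 with LIF and in 29 of the 33 without LIF, against 52.4% and 51.4% of all genes. Among the 34 lower genes these counts were 17 and 15, with and without LIF. The r array with LIF was the lowest of the 4 knockout arrays in 29 of the 33 higher genes, against 34.7% of all genes. It had the highest median signal over all probe sets but the lowest over the probe sets used. Its part in the higher genes was not tested.

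Core pluripotency genes were within 1.5-fold in at least 1 pair in all cases: 0 of 15 were lower or higher in both, with a median difference of -0.09. The groups did not overlap for 5 of the 15 below and 0 above (10.9% and 14.0% of all genes). Pou5f1, which encodes Oct4, was at 13.41 and 13.40 with LIF and 13.23 and 13.32 without (-0.13, SE 0.16). Sox2, its partner, overlapped between the groups, with 13.76 and 13.44 with LIF and 13.60 and 13.54 without; its difference of -0.03 turned to 0.07 under quantile normalization. Nanog, a further factor of this core, also overlapped, with 12.99 and 13.24 with LIF and 12.66 and 13.07 without (-0.26, SE 0.26). Tdgf1, the Nodal coreceptor, was at 13.59 and 13.52 with LIF and 13.01 and 13.07 without (-0.51, SE 0.16). Fbxo15, a target of Oct4 and Sox2, was at 13.07 and 13.35 with LIF and 12.39 and 12.89 without.

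Of the 21 measured naive state genes, Stat3 and Mras were lower in both pairs and 0 were higher, and the median difference was -0.14. Without overlap, 7 of the 21 lay below and 1 above (10.9% and 14.0% of all genes). Klf4, a Krüppel-like factor that Stat3 induces, was at 11.79 and 12.09 with LIF and 11.51 and 11.26 without (-0.55, SE 0.28), 1.5-fold lower in the r pair only. Tfcp2l1, another Stat3 target of the naive network, was at 10.96 and 10.93 with LIF and 10.64 and 10.53 without (-0.36, SE 0.17). Esrrb, an orphan nuclear receptor gene, was at 11.54 and 11.84 with LIF and 11.29 and 11.28 without (-0.41, SE 0.17). The arrays without LIF were the lower ones in these 3 genes, by less than 1.5-fold in at least 1 pair. Klf2 differed by -0.03 and -0.17 and Klf5 by -0.17 and -0.41, and 0 of 11 Krüppel-like factors were lower or higher in both pairs.

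Other signalling lists held few or no such genes. In the FGF and ERK list, whose pathway drives exit from the naive state, 0 of 18 measured genes were lower or higher in both pairs, with a median of 0.18. Spry2, a feedback inhibitor, was 0.39 and 0.29 lower, while the phosphatase gene Dusp4 was 0.53 and 0.76 higher and the receptor gene Fgfr1 0.86 and 0.18 higher. In the BMP and ID list, 0 of 11 passed in either direction. Bmp4, the ligand, was at 11.09 and 10.83 with LIF and 10.51 and 10.16 without, and its target Id2 at 10.29 and 10.06 with LIF and 10.87 and 10.74 without. Both passed 1.5-fold in the r pair and lay just under it in the first pair, but a second Id2 probe set differed by 0.33 and -0.52.

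Of the Nodal and Lefty genes 0 of 13 passed, with Skil, a repressor of SMAD signalling, 0.54 and 0.33 higher and Lefty1, a Nodal inhibitor, 0.68 and 0.49 higher. Of the MYC network 0 of 14 passed. Myc itself, a known LIF target, differed by 0.13 and 0.04, and Mnt, an antagonist of Myc, was at 9.30 and 9.09 with LIF and 8.38 and 8.67 without.

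Lists of general cell functions held 0 genes lower or higher in both pairs. Their medians ran from -0.14 for heat shock genes to 0.11 for Polycomb genes, over 32 measured cell cycle genes, 23 of glycolysis and hypoxia, 23 of cholesterol synthesis, 25 of amino acid and unfolded protein stress, 16 of p53 and apoptosis, 18 of Polycomb, 15 retroelement repressors, 11 heat shock genes and 27 of the actin cytoskeleton. Hk2, the hexokinase of the glycolysis list, was 0.38 and 0.49 lower. Of 21 ribosomal protein genes 9 lay below without overlap, with a median of -0.23, and of 31 respiratory chain genes 7 did, with a median of -0.10, where 10.9% of all genes lay below without overlap. Under quantile normalization the differences of Rps24, Rpl27 and Cox4i1 from these lists were 0.01 each, where they had been -0.24, -0.23 and -0.19.

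**Figure D3:**
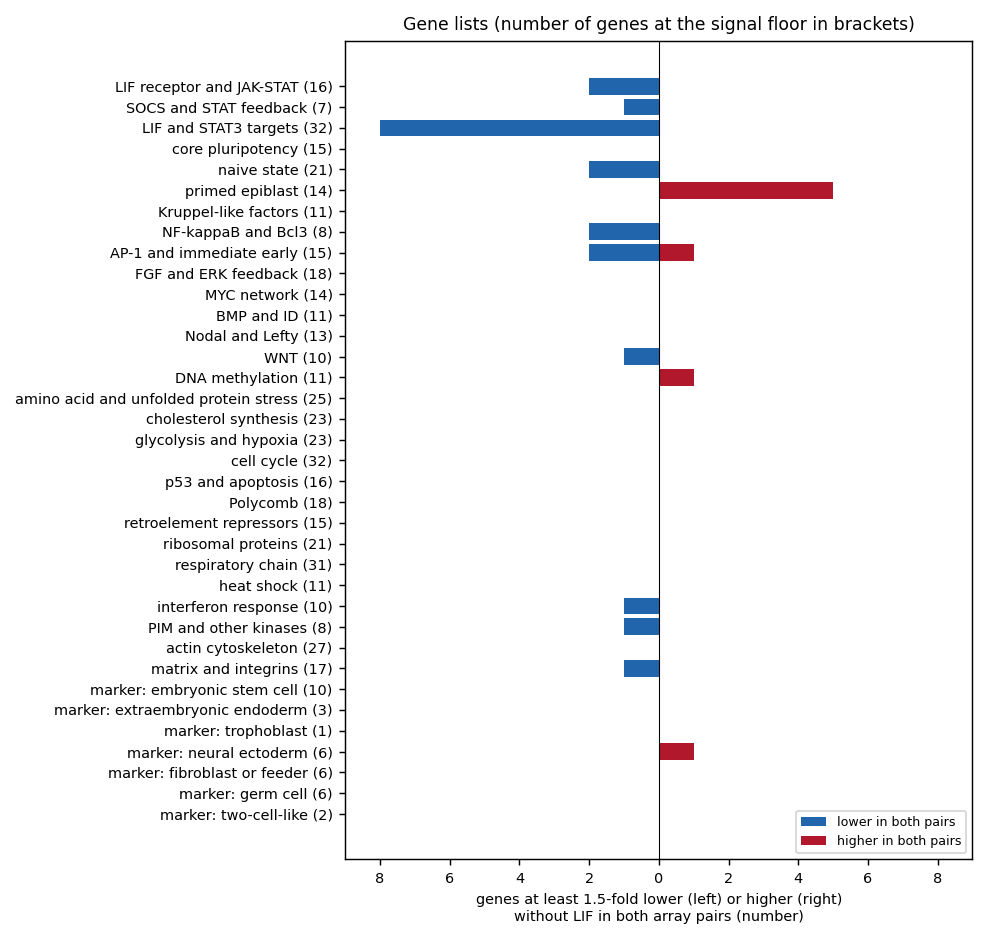
Number of genes (horizontal axis) at least 1.5-fold lower (blue, left) or higher (red, right) without LIF in both pairs of knockout arrays, for each gene list, with the number of its genes above the signal floor in brackets. The longest bars are the 8 lower genes among 32 LIF and STAT3 targets and the 5 higher genes among 14 of the primed epiblast.

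The summed signal of fibroblast or feeder markers was 13690 and 10300 with LIF and 11620 and 8562 without, so the groups overlapped. Of 14 such markers on the array 6 were above the floor, and Col1a1, Col3a1 and Thy1 were below it. Tfap2c, the trophoblast marker above the floor, was 0.89 and 0.42 lower without LIF. The summed signal of extraembryonic endoderm markers, whose 3 genes above the floor were Dab2, Lamb1 and Sparc, ran from 6690 to 8047 with overlapping groups, and that of the mesoderm markers from 1093 to 1404. The neural markers summed to 10960 and 12300 with LIF and 9697 and 11380 without. The germ cell markers, 6 of 13 above the floor, summed to 5020 and 4612 with LIF and 4943 and 5359 without, and the 2-cell-like markers, 2 of 6, ran from 6428 to 8222. The sums of 2 lists were lower in both arrays without LIF: embryonic stem cell markers summed to 107500 and 113800 with LIF and 94610 and 102700 without, and the actin cytoskeleton list to 99180 and 94710 with LIF and 89660 and 83060 without. A sum of linear signals weighs the brightest genes most, such as Actg1 of the actin list, which differed by -0.28. Gene by gene, the median difference was -0.08 for the embryonic stem cell markers and 0.0 for the actin list. The sums were not computed under quantile normalization. The part of cell composition in the differences was not tested.

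The LIF response of the knockout arrays was set against that of the J1 arrays, which share no array with it. limma's interaction term, the response in knockout minus that in J1, called 0 of 14892 probe sets (0.0%) at an adjusted p under 0.05; the smallest adjusted p was 1.0, and 159 had an unadjusted p under 0.05. A missed threshold does not show that the responses were alike. Of the 34 genes lower in both knockout pairs, 23 also lay below without overlap in J1 and 1, Stat4, lay above, where 10.8% of all genes lay below. Of the 33 higher genes 10 also lay above in J1 and 3 lay below, where 13.0% of all genes lay above. The median difference of the lower genes was -0.83 in the knockout and -0.71 in J1, and that of the higher genes 0.78 and 0.31; since the genes were chosen for their size in the knockout, the larger knockout values are a description.

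Socs3 was lower by 3.01 in the knockout and by 2.97 in J1, so the difference between the responses was -0.05 (SE 0.80). Stat3 was lower by 1.14 and 1.13 (difference -0.006, SE 0.43), and Bcl3 by 1.60 and 1.96 (difference 0.36, SE 0.54). The J1 means of these 3 genes average uneven pairs. In the first and r pair of J1, Socs3 was lower by 2.01 and 3.92 and Bcl3 by 1.39 and 2.53. Stat3 was lower there by 0.52 and 1.74, the former under 1.5-fold. Klf4 was lower by 0.55 in the knockout and 1.14 in J1 (difference 0.59, SE 0.39), and Lifr by 0.07 and 0.54 (difference 0.48, SE 0.24). Otx2 was higher by 1.11 and 1.26. Each of these differences between responses was without a call.

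The 1 lower and 3 higher genes that lay the other way in J1 are no larger a share than among all genes, of which 13.0% lay above and 10.8% below in J1, and the adjusted p of the interaction was 1.0 for each. Stat4 was lower by 0.59 and 0.61 in the first and r knockout pair and higher by 0.61 and 1.10 in J1. Tsks was higher by 0.98 and 0.89 in the knockout and lower by 0.37 and 0.39 in J1, and Pan3 was higher by 0.60 and 1.04 in the knockout and lower by 0.12 and 1.11 in J1. Scyl2, lower by 0.81 and 1.76 in the knockout, differed by 0.15 and 0.46 in J1, where its arrays overlapped (difference between the responses -1.59, SE 0.59). Garem1 was 0.98 and 1.11 higher in the knockout and differed by -0.05 and -0.25 in J1 (1.20, SE 0.46).

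**Figure D4:**
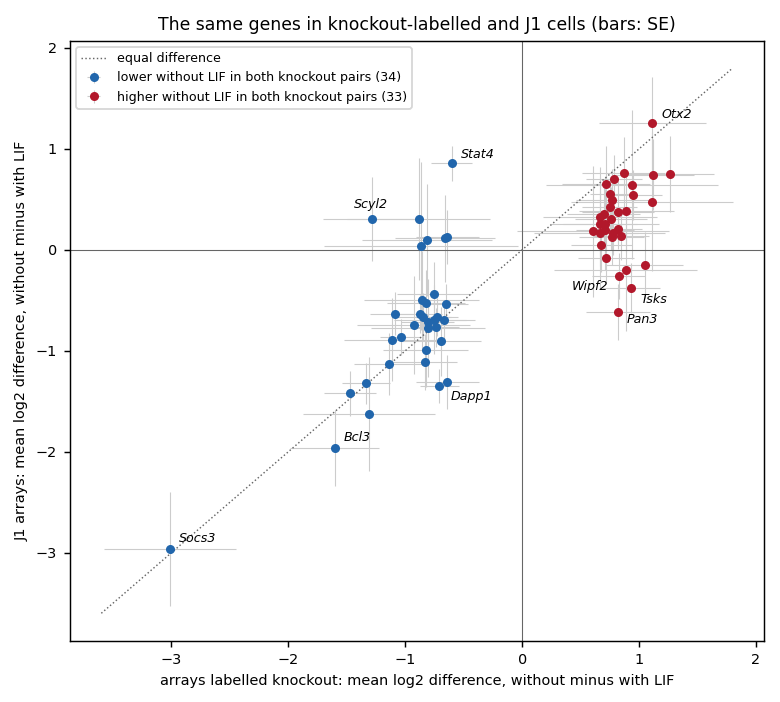
Mean log2 difference without minus with LIF in the J1 arrays (vertical axis) against that in the knockout arrays (horizontal axis) for the 34 lower (blue) and 33 higher (red) genes, with SE from limma as bars and the line of equal difference dotted. Socs3 and Bcl3 lie near the line. Stat4 and some other lower genes, such as Scyl2, lie above 0 in J1. Tsks, Wipf2, Pan3 and some other higher genes, such as Garem1, lie below 0 in J1.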

How the data were processed

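The authors deposited 1 linear signal intensity per probe set and array. GCRMA is named in the submitters' processing notes. Each deposited column has a trimmed mean of 500 after leaving out 2% at each end; the sources used here do not give the step that set it. The array's gene symbols come from GEO's platform annotation: of the 14892 probe sets used, 13638 had 1 symbol, 458 several and 796 none, and only the first were named. Promoter sequences are RefSeq's, by symbol.

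Intensities were taken to log2 with no pseudocount. limma 3.58.1 in R 4.3.3 fitted 1 mean per group over all 8 arrays, with eBayes and Benjamini-Hochberg adjustment over 14892 probe sets. SE are from this fit. It was run on simulated data with independent noise in each array, where the check was the size of planted differences. That simulation held no shift shared by the r arrays, so it does not test the SE. Tables and figures used Python 3.11.15, pandas 2.3.3 and matplotlib 3.10.9.

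The genes and lists were chosen with earlier results of these data known. Named were any limma call, the 12 lower and 12 higher non-overlapping genes with the largest smaller-of-2 differences, up to 4 genes per list by the same measure, and a fixed set of genes of the pathway and of pluripotency; other genes were named after their values were seen. Alternatives covered the floor, normalization, pseudocount, variance trend, fold limit, probe set per gene, arrays in the fit, the letter r as a block, and leaving out each array.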

Additional observations from a re-analysis of the deposited data

Results flagged for a closer look

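In 4 of the 34 lower and 33 higher genes of the knockout arrays, both J1 pairs went the opposite way without overlap; that is 1 lower and 3 higher genes, where 13.0% of all genes lay above and 10.8% below without overlap in J1, so the count is not above the background. The difference between the responses, knockout minus J1, was 1.31 for Tsks, -1.46 for Stat4, 1.43 for Pan3, which encodes a subunit of an mRNA deadenylase, and 1.09 for Wipf2, a regulator of actin assembly, on the log2 scale. limma's interaction term called none of the 4 (adjusted p = 1.0 each). Against a floor of 8 for the mean over the 8 arrays, Stat4 lay in the knockout arrays at 7.66 to 8.32, and with LIF Tsks was at 7.94 and 7.47 and Wipf2 at 8.09 and 7.50.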

How the results depend on the processing

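limma called 0 probe sets under every alternative run, for LIF withdrawal in the knockout and for its difference from J1; the unadjusted counts at p under 0.05 for the knockout ran from 111 with a floor of log2 10 to 1770 with the loosest filter. When the letter r entered as a replicate block, 0 probe sets were called, 1022 had an unadjusted p under 0.05 for the knockout and 460 for the difference from J1. Between pairs of groups, the differences of the r array from the first array had correlations of 0.236 to 0.638 over the 14892 probe sets. The main fit had no term for the letter r, so a shift shared by the r arrays entered its SE. The counts in both pairs set first against first and r against r by their titles. The 34 lower and 33 higher genes became 106 and 76 with a floor of 7, 8 and 9 with a floor of 10, 912 and 522 with a log2 of at least 4 in at least 2 arrays, and 6 and 2 at 2-fold. Leaving out each knockout array in turn, chosen after seeing the data, gave 47 to 84 lower and 40 to 245 higher. Of the LIF and STAT3 targets 3 were lower with a floor of 10, and 7 or 8 under each of the other alternatives run. Of the primed epiblast genes 3 were higher with a floor of 10, 3 with the mean of all probe sets of a gene, and 1 to 5 with an array left out. None of the 24 leading genes reversed under any alternative run, and 9 of the 113 named genes did. The leading genes were chosen for groups that do not overlap, so leaving out an array could not reverse them. For them only the other alternatives were open to a reversal. With the mean of all probe sets Spry4 was at -0.10 and B2m at -0.0. Under quantile normalization Rps24, Rpl27 and Cox4i1 were at 0.01, Zfp42 at 0.12 and Sox2 at 0.07. With an array left out Il6st ran from -0.27 to 0.13, Jak1 from -0.02 to 0.25 and Sox2 from -0.19 to 0.13. The floors change which genes are counted, and the cause of the other shifts was not tested. No background value was used, so low signals carry an unknown share of background.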
